A study of Mus musculus with 2208 samples.

Results

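The mitochondrial respiratory chain is built from 5 protein complexes, and the genes described here are their nuclear-encoded subunits together with a few assembly factors. The members were the rows of the deposited expression table whose symbol began with 1 of 16 prefixes: Ndufa, Ndufb, Ndufc, Ndufs, Ndufv, Sdha, Sdhb, Sdhc, Sdhd, Uqcr, Cox4i, Cox5, Cox6, Cox7, Cox8 or Atp5. This gave 94 of the 23951 genes in the table, and the rule reads symbols only. Complex I held 43 members, complex II 6, complex III 8, complex IV 20 and complex V 17. Ndufa4, long listed with complex I, was counted with complex IV, where its protein sits. RefSeq now names Atp5s and Atp5sl as Dmac2l and Dmac2, which are not subunits of the ATP synthase, and both were kept because the prefix took them in.

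Complex I (NADH dehydrogenase) passes electrons from NADH to coenzyme Q, and complex II (succinate dehydrogenase) does so from succinate. Complex III hands the electrons to cytochrome c and complex IV (cytochrome c oxidase) hands them to oxygen. Complexes I, III and IV pump protons out of the mitochondrial matrix as they do this, and complex V, the ATP synthase, lets the protons back in and makes ATP. Some subunits of complexes I, III, IV and V are encoded by the mitochondrial DNA and are not members. Microglia, the resident macrophages of the brain, rely on the chain at rest and are known to shift the balance between respiration and glycolysis when they are activated.

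The study used CK-p25 mice, which carry p25, a fragment of the Cdk5 activator p35, under a CamKII-driven transactivator that can be induced in neurons of the forebrain. The CK littermates served as controls and lack the induced p25. Single cells positive for CD11b and CD45 were sorted from the hippocampus of CK and CKp25 mice before induction (0 weeks, age 3 months), 1 week after it (3 months 1 week), 2 weeks after it (3 months 2 weeks) and 6 weeks after it (4 months 2 weeks). Every group had 3 mice except CKp25 at 6 weeks, which had 4, so that there were 25 mice in 8 groups. Age rises with time since induction in both genotypes.

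Libraries had been made well by well with a modified Smart-seq2 protocol, and 2028 of 2208 wells (91.8%) with at least 1000 genes at an FPKM (fragments scaled to transcript length and to the total of the library) of 1 or more were kept, 41 to 96 per mouse. FPKM carry no read counts, so the depth behind single values is unknown. Over all 2208 wells 90.0% of entries were 0, and Gapdh, a gene that every cell uses, was listed at 0 in 24.6%. The median number of genes per kept cell ranged from 1537.5 to 2994 between mice. The summed FPKM of 8 microglia markers lay between 5762 and 22789 in every mouse, while that of T or NK cell markers was at most 4.03, of neuron markers at most 10.2, of monocyte markers at most 54.9 and of border-associated macrophage markers at most 190. The first well of each mouse stood apart, with a median of 10011 genes in these 25 wells against 2292 in the others; without them 6, 16 and 9 members were called at 1, 2 and 6 weeks, against 7, 16 and 9 with them. The level of a gene in a mouse is the mean of log2(FPKM + 1) over its kept cells, and a difference is the CKp25 mean less the CK mean on that scale, which understates the change of genes listed at 0 in most cells. A level can move through the share of cells in which a gene is listed and through the amount where it is listed, and from these data fewer expressing cells and less RNA per cell cannot be told apart.

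In RefSeq, 78 of the 94 members had a promoter entry, with 84 start sites, and the 250 bases before each start were searched on both strands for motifs known from respiratory genes. The motif bound by NRF1 (GCGC, then any base, then TGCGC; on the other strand GCGCA, then any base, then GCGC) was found in 17.9% of the members' windows and in 3.74% of all 32851 RefSeq windows of the same length. The ETS motif CCGGAAG (on the other strand CTTCCGG), to which GABP binds, was in 16.7% of the members' windows and in 6.91% of all. For the YY1 motif AAGATGGCG the shares were 2.38% and 0.606%, for the GC box GGGCGG 38.1% and 32.7%, and for the TATA motif TATAAA 8.33% and 12.4%. Among the 26 members called in at least 1 of the genotype comparisons given further on, 21 had an entry, with 23 windows, of which 4 held the NRF1 motif and 6 the ETS motif. A match is a run of letters in the window and does not show that a factor binds there. The windows of 5 called members are printed to show what these matches look like, 5′ to 3′ along the gene, all on the minus strand of GRCm38.p6, with NRF1 and ETS matches in capitals. Uqcrh (chr4:116075071-116075320) has an ETS match just before the start, Cox6a1 (chr5:115348959-115349208) has a pair of NRF1 matches and an ETS match, Ndufb6 (chr4:40279422-40279671) has an ETS match far from the start, Atp5g2 (chr15:102671048-102671297) has an NRF1 match, and Cox7a2l (chr17:83514334-83514583) has neither.
Uqcrh: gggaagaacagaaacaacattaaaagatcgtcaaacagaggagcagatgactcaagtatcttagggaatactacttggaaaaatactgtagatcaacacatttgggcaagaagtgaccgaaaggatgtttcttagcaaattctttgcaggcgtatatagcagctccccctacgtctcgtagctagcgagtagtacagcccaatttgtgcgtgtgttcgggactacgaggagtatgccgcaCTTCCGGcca
Cox6a1: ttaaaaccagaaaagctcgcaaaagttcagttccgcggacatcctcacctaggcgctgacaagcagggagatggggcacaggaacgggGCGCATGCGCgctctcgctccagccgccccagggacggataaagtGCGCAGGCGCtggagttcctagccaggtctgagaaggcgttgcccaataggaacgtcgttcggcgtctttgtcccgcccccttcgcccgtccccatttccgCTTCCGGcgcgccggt
Ndufb6: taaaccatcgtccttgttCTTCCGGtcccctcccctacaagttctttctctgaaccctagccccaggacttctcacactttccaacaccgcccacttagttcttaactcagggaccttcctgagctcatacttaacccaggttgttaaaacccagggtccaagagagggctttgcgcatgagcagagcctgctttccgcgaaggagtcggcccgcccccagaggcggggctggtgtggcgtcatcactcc
Atp5g2: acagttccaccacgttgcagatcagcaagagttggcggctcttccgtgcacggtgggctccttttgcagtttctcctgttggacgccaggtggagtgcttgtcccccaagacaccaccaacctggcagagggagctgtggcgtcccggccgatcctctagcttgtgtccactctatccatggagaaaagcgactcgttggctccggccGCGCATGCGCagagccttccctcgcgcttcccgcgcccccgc
Cox7a2l: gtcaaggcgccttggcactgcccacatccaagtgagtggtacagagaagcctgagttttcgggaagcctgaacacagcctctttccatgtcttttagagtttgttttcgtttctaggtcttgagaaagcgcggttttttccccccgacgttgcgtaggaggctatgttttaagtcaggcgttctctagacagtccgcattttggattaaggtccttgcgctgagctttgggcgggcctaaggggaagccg

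Respiratory chain members were listed in few cells before induction and in more cells of CKp25 mice afterwards, with the highest levels in complexes IV, III and V. Of the 94 members, 82 reached an FPKM of 1 in 10% or more of cells in no fewer than 3 mice and were tested (complex I 39, complex II 6, complex III 8, complex IV 13, complex V 16). Cox6a2, 1 of these, passed only through CKp25 mice at 2 and 6 weeks and is part of the counts at those times. The other 12 were Ndufaf1, Ndufaf5, Ndufaf6, Ndufs5, Ndufa4l2, Atp5s, Cox4i2, Cox6b2, Cox7a1, Cox7b2, Cox8b and Cox8c. Averaged over the mice, the FPKM of the tested members ran from 3.68 for Ndufaf4, an assembly factor of complex I, to 341 for Cox4i1, the common form of a complex IV subunit that takes part in its regulation. Within the complexes the highest were Ndufs8 (96.9) in complex I, Sdhb (83.9) in complex II, Uqcrh (146) in complex III, Cox4i1 in complex IV and Atp5g2 (159) in complex V.

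The mean level over the members of complex IV was 2.11 ± 0.17 in CK mice and 2.1 ± 0.40 in CKp25 mice at 0 weeks (SD, n = 3). At 2 weeks the 3 CK mice stood at 2.35, 3.24 and 2.29 and the 3 CKp25 mice at 3.83, 3.93 and 4.18. Every CKp25 mouse was above every CK mouse at that time. Complexes I and II were different in this respect. At 2 weeks the level of complex II was 1.43, 2.33 and 1.44 in CK mice. In CKp25 mice it was 1.77, 2.37 and 1.96, so that the groups overlapped. Complex III stood at 2.07 ± 0.36 in CK and 3.13 ± 0.24 in CKp25 mice at 2 weeks, and complex I at 1.58 ± 0.30 and 2.16 ± 0.24. In complex I the groups overlapped slightly, with CK mouse 2 at 1.90 and CKp25 mouse 1 at 1.88. These complex means describe the members and were not tested.

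**Figure D1:**
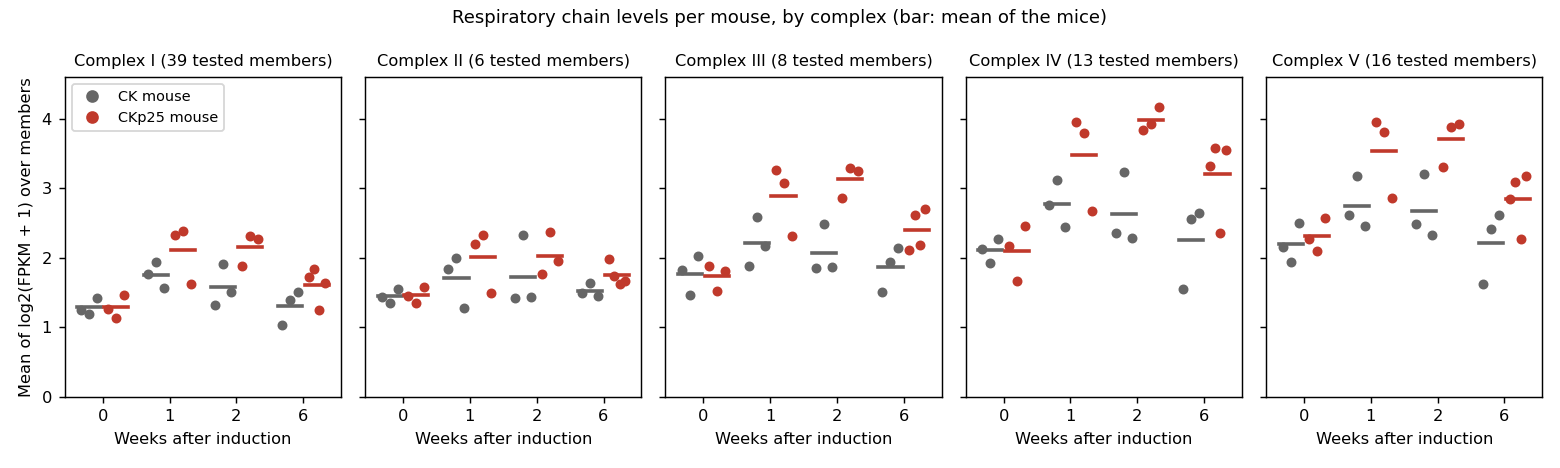
Mean level of the tested members of each complex, as the mean over members and kept cells of log2(FPKM + 1), with 1 point per mouse and the group mean as a line, over weeks since induction in CK and CKp25 mice. In complex IV at 2 weeks the CKp25 mice lie between 3.83 and 4.18 and the CK mice between 2.29 and 3.24. The groups overlap in complexes I and II at that time.

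CKp25 was compared with CK at each time with limma over all 9435 tested genes, and a member was called when its Benjamini-Hochberg adjusted p over all of them was below 0.05. At 0 weeks no member was called in either direction, as was the case for all genes (0% of genes higher and 0% lower); 1 member had an unadjusted p under 0.05. The median difference of the members was -0.01, that of all tested genes 0.03. Before induction 3 members had all CKp25 mice above all CK mice, where 4.88% of all genes did, and 1 member had them all below, where 2.64% of all genes did.

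At 1 week 7 of 82 members rose in CKp25 mice and none fell, against 3.9% of all genes higher and 0.392% lower. The difference was above 0 for 70 members, and the median difference was 0.47, against 0.06 over all tested genes. An unadjusted p under 0.05 was reached by 24 members (29.3%) and by 17.6% of all genes. In 16 members every CKp25 mouse was above every CK mouse, in none below, where 12.7% and 7.94% of all genes did so. The count at 1 week rested on single mice: it was 1 without CK mouse 1 or without CKp25 mouse 2, 2 without CKp25 mouse 1, 3 without CK mouse 3 and 11 without CKp25 mouse 3. CKp25 mouse 3 had the lowest member levels of its group.

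At 2 weeks 16 members rose and none fell, against 6.14% of all genes higher and 2.24% lower. Of the 82 members 79 had a difference above 0, and the median was 0.81, against 0.00 over all genes. In 38 members every CKp25 mouse was above every CK mouse, where 12.9% of all genes did so. Without CK mouse 1 or CKp25 mouse 3 the count was 6, without CK mouse 3 it was 7, and without CK mouse 2, the control with the highest levels, it was 25. At 6 weeks 9 members rose and none fell, against 4.21% and 1.54% of all genes. The median was then 0.38, against -0.04 over all genes, and 65 members had a difference above 0. In 10 members all CKp25 mice were above all CK mice (6.22% of all genes), and in 1 all were below (6.68%), the complex I assembly factor Ndufaf4, whose difference of -0.33 was not called (limma adjusted p = 0.262). The count at 6 weeks was 5 without CK mouse 1. Over the 3 times 26 members were called at least once and none at every time. Atp5g1 and Cox6a1 were called at 1 and at 2 weeks, and Cox4i1, Cox6a2, Ndufa1 and Uqcrh at 2 and at 6 weeks, which were 25% of the calls at 2 weeks and 44.4% of those at 6 weeks. No member was called at both 1 and 6 weeks. When a mouse's level was the log2 of its mean FPKM in place of the mean of log2 values, 0, 1 and 5 members were called at 1, 2 and 6 weeks, with medians of 0.10, 0.23 and 0.26 against -0.17, -0.35 and -0.18 over all genes.

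The calls by complex are read against 3.9%, 6.14% and 4.21% of all genes higher at 1, 2 and 6 weeks. Complex IV had 2, 6 and 3 called members of 13 tested at 1, 2 and 6 weeks, with median differences of 0.80, 1.31 and 0.73. In complex V 3, 4 and 2 of 16 were called (medians 0.82, 1.13 and 0.42), in complex III 0, 3 and 1 of 8 (medians 0.61, 1.06 and 0.40; 2 members had an unadjusted p under 0.05 at 1 week), and in complex I 2, 3 and 3 of 39 (medians 0.37, 0.52 and 0.21). The called share was 5.13%, 7.69% and 7.69% in complex I, near that of all genes, and 15.4%, 46.2% and 23.1% in complex IV. The complex IV shares at 2 and 6 weeks include Cox6a2, which passed the filter on low values only through CKp25 mice at these times. They are shares of the 13 tested of 20 members. Complex II had no call at any time (medians 0.29, 0.26 and 0.24), with 2, 0 and 0 of its 6 members at an unadjusted p under 0.05; at the share of all genes fewer than 1 call would fall on 6 members. Differences between the complexes were not tested. Over the 82 members the difference at 2 weeks was larger for members with a higher mean level (Pearson r = 0.522, a description over genes of the same libraries).

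**Figure D2:**
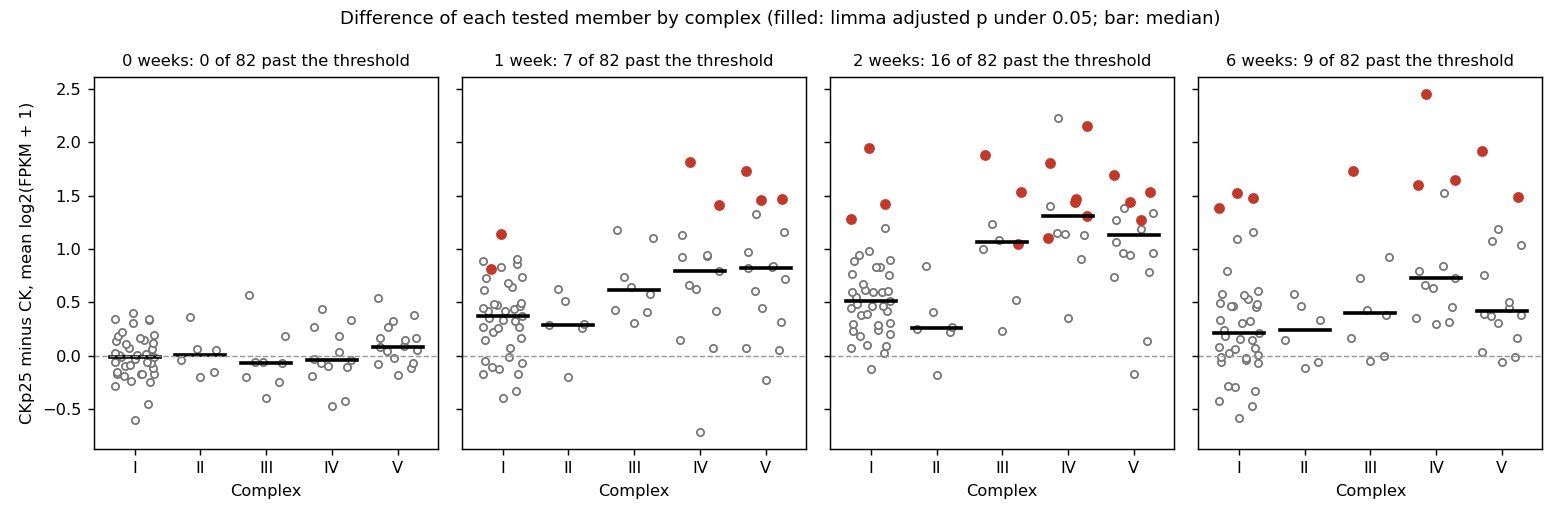
Difference between CKp25 and CK in mean log2(FPKM + 1) for each of the 82 tested members, 1 point per member, arranged by complex and by weeks since induction, with filled points for members called by limma at an adjusted p below 0.05 and a bar for the median of the complex. At 2 weeks 79 of the 82 points lie above 0 and 16 are filled, and at 0 weeks none is.

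In complex I every call was on an accessory subunit, of which 28 were tested, and these calls numbered 2, 3 and 3 at the 3 times. The 7 tested core subunits, which carry the flavin and the iron-sulfur clusters, had no call at any time, with 1 of 7 at an unadjusted p under 0.05 each week and medians of 0.42, 0.39 and 0.15. At the share of all genes fewer than 1 call would fall on 7 members, and core and accessory subunits were not tested against each other. Ndufs8, an iron-sulfur core subunit and the most abundant member of the complex, stood at 2.37, 3.57 and 2.60 in CK and 3.42, 4.46 and 2.86 in CKp25 mice at 1 week. It stood at 2.87, 3.16 and 2.89 against 3.07, 4.11 and 2.91 at 2 weeks. The groups overlapped at both times, and its differences of 0.73, 0.39 and 0.49 at 1, 2 and 6 weeks were not called. The 6 tested assembly factors of complexes I and II, which help to build the complexes and do not remain in them, had no call either, with 2, 1 and 1 of 6 at an unadjusted p under 0.05 and medians of 0.11, 0.13 and -0.09.

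Ndufb6, an accessory subunit of the membrane arm, was the clearest complex I change at 1 week. Its level was 1.22, 1.15 and 0.98 in the 3 CK mice and 2.67, 2.24 and 1.85 in the 3 CKp25 mice. The lowest CKp25 mouse was thus well above the highest CK mouse, and the difference was 1.14 ± 0.23 (SE; limma adjusted p = 0.00097). The call was kept whichever of the 6 mice was left out. It was lost with the log2 of the mean FPKM, without cells listing Mki67 or Top2a (with or without the genes per cell as covariate), with only the groups of that week, and in cells with 2000 to 3000 genes, with an adjusted p of up to 0.632. Ndufb6 was listed in 29.4% ± 5.96 of the cells of CKp25 mice and in 14.0% ± 0.955 of those of CK mice (SD, n = 3 each). An exact two-sided permutation test on these shares gave p = 0.1, the smallest that 3 against 3 mice allow. At 6 weeks the CKp25 mice were back among the controls, at 1.09, 0.73, 0.65 and 0.69 against 0.68, 0.44 and 1.01. Ndufs6, an accessory subunit needed late in assembly, stood at 0.61, 0.92 and 0.38 against 1.67, 1.44 and 1.23 at 1 week, again with no overlap, and rose by 0.81 ± 0.24 (limma adjusted p = 0.0356). That call was lost on omitting CK mouse 1 or 3 or CKp25 mouse 1 or 2. It was also lost in 11 of 18 other settings of the processing (limma adjusted p of up to 0.906).

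Ndufa1, a small membrane subunit required for complex I assembly, was called at 2 and 6 weeks. At 0 weeks its level was 0.92, 1.16 and 1.13 in CK and 1.17, 0.43 and 1.05 in CKp25 mice. At 1 week the values were 1.57, 2.31 and 1.22 against 2.54, 2.74 and 1.28, with overlap. At 2 weeks they were 1.05, 1.20 and 1.00 against 2.73, 2.63 and 3.72. At 6 weeks they were 0.83, 0.79 and 1.36 against 2.84, 2.91, 1.81 and 1.96. From 2 weeks on every CKp25 mouse was above every control, and the differences were 1.94 ± 0.36 at 2 weeks (limma adjusted p = 0.000181) and 1.39 ± 0.34 at 6 weeks (adjusted p = 0.00594). The call at 2 weeks held without any single mouse but not with the log2 of the mean FPKM (adjusted p = 0.0782), and that at 6 weeks was lost on omitting CK mouse 2 and in cells with 2000 to 3000 genes (adjusted p = 0.116). Ndufa1 was listed in 41.6% ± 7.35 of CKp25 cells per mouse and in 15.5% ± 2.1 of CK cells at 2 weeks.

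At 2 weeks Ndufb9, a membrane arm subunit, stood at 1.78, 2.38 and 2.09 in CK and 3.61, 3.34 and 3.56 in CKp25 mice, with a difference of 1.42 ± 0.37 (limma adjusted p = 0.00952). Ndufa8, an accessory subunit of the intermembrane space side, stood at 0.99, 2.34 and 1.85 against 2.98, 3.39 and 2.65 (difference 1.28 ± 0.41, adjusted p = 0.043). In both genes the groups were apart. The call of Ndufb9 was lost on omitting CK mouse 1, and that of Ndufa8 was kept only without CK mouse 2. Across 19 other settings Ndufb9 was lost in 3 and Ndufa8 in 11 (limma adjusted p of up to 0.757 and 0.724). At 6 weeks the complex I calls were Ndufa7 and Ndufa6, subunits of the matrix arm, beside Ndufa1. Ndufa7 stood at 0.55, 1.44 and 1.75 in CK and 2.49, 2.66, 2.93 and 3.01 in CKp25 mice, and rose by 1.53 ± 0.32 (limma adjusted p = 0.00106); no single mouse decided the call, and with all wells it was lost (adjusted p = 0.057). Ndufa6 stood at 1.27, 1.94 and 2.04 against 2.99, 3.76, 2.49 and 3.69 (difference 1.48 ± 0.43, adjusted p = 0.0276), and its call was lost on omitting CK mouse 1 or 2 or CKp25 mouse 2 or 4. The call of Ndufa6 was also lost in 4 of 19 other settings (limma adjusted p of up to 0.224).

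Complex II is the only complex of the chain whose subunits are all encoded by nuclear genes, and it is also an enzyme of the tricarboxylic acid cycle. Sdhb, its iron-sulfur subunit, stood at 3.90, 3.82 and 2.57 in CK and 3.89, 4.51 and 2.67 in CKp25 mice at 1 week. At 2 weeks the values were 2.74, 3.64 and 3.02 against 4.15, 4.20 and 3.57. At 6 weeks they were 2.07, 2.79 and 2.66 against 2.55, 3.31, 3.20 and 2.82. CK and CKp25 mice overlapped at each of these times, and the differences of 0.26, 0.84 and 0.47 were not called (limma adjusted p = 0.822, 0.281 and 0.652). Sdha, the flavoprotein subunit, differed by 0.30, 0.27 and 0.58, also without a call.

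Complex III calls were accessory subunits only. Uqcrh, the acidic hinge subunit that assists the contact with cytochrome c, was close in both genotypes at 0 weeks, at 2.04, 2.65 and 2.24 in CK and 2.31, 2.13 and 2.28 in CKp25 mice. At 1 week it was 2.48, 2.96 and 3.23 against 4.21, 3.13 and 2.26, with overlap and no call. At 2 weeks it was 2.32, 3.36 and 2.38 against 4.48, 4.24 and 4.97. At 6 weeks it was 2.30, 2.92 and 2.96 against 4.1, 4.08, 4.44 and 5.21. The groups were apart at both later times, with differences of 1.88 ± 0.44 (limma adjusted p = 0.00326) and 1.73 ± 0.41 (adjusted p = 0.00447), and neither call depended on a single mouse. Both were lost with the log2 of the mean FPKM and with all wells (adjusted p of up to 0.406 at 2 weeks and 0.128 at 6 weeks). Uqcrh was listed in 58.3% ± 1.69 of CKp25 cells per mouse at 2 weeks and in 34.1% ± 6.64 of CK cells.

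Uqcrq, a small subunit near cytochrome b, stood at 1.51, 1.95 and 1.34 in CK and 2.85, 3.01 and 3.54 in CKp25 mice at 2 weeks (difference 1.53 ± 0.42, limma adjusted p = 0.0129). Uqcr10, another small subunit, stood at 1.22, 1.17 and 1.06 against 1.59, 2.15 and 2.84 (difference 1.04 ± 0.29, adjusted p = 0.0158). Both had every CKp25 mouse above the controls at 2 weeks and were not called at 6 weeks. The call of Uqcrq was lost on omitting CK mouse 1 or 3 or CKp25 mouse 3, and that of Uqcr10 without CK mouse 3 or CKp25 mouse 3. Across 19 other settings Uqcrq was lost in 4 and Uqcr10 in 3 (limma adjusted p of up to 0.228 and 0.842). Uqcrfs1, the Rieske iron-sulfur protein and the only catalytic subunit of complex III among the members, had differences of 1.10, 0.23 and -0.00 at the 3 times, none of them called (limma adjusted p = 0.109, 0.804 and 0.998).

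At 2 and 6 weeks complex IV had the highest median difference of the 5 complexes. Cox4i1 had the highest level of all members in every group but CKp25 at 0 weeks, where Atp5b was slightly higher. It stood at 5.21, 4.96 and 4.14 in CK and 3.94, 4.41 and 4.69 in CKp25 mice at 0 weeks. At 2 weeks it stood at 5.52, 6.26 and 5.44 against 7.59, 7.87 and 8.21, so that the groups were apart. At 6 weeks the values were 4.15, 5.30 and 5.74 against 6.62, 7.05, 5.67 and 7.52, and CKp25 mouse 3 lay just below the highest control. The differences were 2.15 ± 0.53 at 2 weeks (limma adjusted p = 0.00569), kept without any single mouse but not with the log2 of the mean FPKM or with all wells (adjusted p of up to 0.253), and 1.65 ± 0.50 at 6 weeks (adjusted p = 0.0379), lost on omitting CK mouse 1 or 2 or CKp25 mouse 1, 2 or 4. The call at 6 weeks was also lost in 6 of 19 other settings, a block for the mouse number among them (limma adjusted p of up to 0.345). At 2 weeks Cox4i1 was listed in 91.4% ± 3.64 of CKp25 cells per mouse and in 70.7% ± 3.69 of CK cells.

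Cox6a1, the common form of a membrane subunit, led the complex at 1 week. Its level was 1.70, 2.53 and 2.27 in CK and 4.18, 4.65 and 3.12 in CKp25 mice, a difference of 1.82 ± 0.44 (limma adjusted p = 0.00806). At 2 weeks it was 2.58, 3.82 and 2.78 against 4.38, 4.32 and 4.80 (difference 1.44 ± 0.44, adjusted p = 0.0309). At 6 weeks it was 1.63, 2.28 and 2.96 against 2.2, 3.33, 2.26 and 3.18, where the groups overlapped and no call was made. Cox5a, a nuclear subunit on the matrix side, stood at 0.39, 2.34 and 1.86 against 3.21, 3.07 and 2.54 at 1 week (difference 1.41 ± 0.41, adjusted p = 0.0338). Cox5b, which binds zinc on the matrix side, stood at 2.04, 2.66 and 2.96 against 4.18, 3.70 and 5.21 at 2 weeks (difference 1.81 ± 0.50, adjusted p = 0.0153). In these genes the genotypes did not overlap at the time of the call. Cox6c and Cox7b, small membrane subunits, completed the calls at 2 weeks, with differences of 1.47 and 1.31 (adjusted p = 0.0438 and 0.0187). Single mice decided each of these calls: Cox6a1 was lost at 1 week without CK mouse 1 or CKp25 mouse 2 and at 2 weeks without any mouse but CK mouse 2. Cox5a was lost on omitting CK mouse 1 or CKp25 mouse 1 or 2, and Cox5b without CK mouse 1 or CKp25 mouse 3. Cox6c was lost on omitting mouse 1 or 3 of either genotype, and Cox7b without CK mouse 1 or 3 or CKp25 mouse 3. Across 19 other settings Cox6a1 was lost in 4 at 1 week and in 7 at 2 weeks. Cox5a was lost in 8 of them, Cox5b in 4, Cox6c in 10 and Cox7b in 6.

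Some members of complex IV had large differences without a call. Cox8a, the ubiquitous form of the smallest subunit, stood at 3.26, 4.85 and 2.97 in CK and 5.97, 6.23 and 5.56 in CKp25 mice at 2 weeks. Its difference of 2.23 ± 0.78 exceeded that of every called member at that time, but the spread between mice was wide and the limma adjusted p was 0.0767. Ndufa4 differed by 0.42, 0.91 and 0.35 and Cox7a2, the common isoform of another small subunit, by 0.80, 1.14 and 0.30, and neither was called.

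Cox7a2l encodes a relative of the Cox7a subunits, known for its part in joining complexes III and IV into supercomplexes. At 2 weeks it stood at 3.91, 5.73 and 3.54 in CK and 5.25, 5.82 and 5.55 in CKp25 mice, with overlap and no call. At 6 weeks it stood at 3.30, 3.73 and 3.51 against 6.67, 6.31, 4.59 and 6.28. Every CKp25 mouse was then above the controls, and the difference of 2.45 ± 0.50 (limma adjusted p = 0.000836) was the largest of any member at any time. The call held without any single mouse and was lost with all wells (adjusted p = 0.0575). Cox7a2l was listed in 73.2% ± 6.53 of CKp25 cells per mouse (n = 4) and in 46.1% ± 2.88 of CK cells (n = 3) at 6 weeks. An exact two-sided permutation test on these shares gave p = 0.0286, the smallest that 4 against 3 mice allow.

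Several complex IV subunits exist as a common form and a form known from muscle, lung or testis. The forms Cox4i2, Cox7a1 and Cox8c were listed in at most 2.1%, 2.9% and 1.2% of the cells of any mouse, and Cox8b at 0 in all kept cells. Cox6a2, the heart and skeletal muscle form of Cox6a1, behaved otherwise. It was listed in 1.1%, 1.0% and 0% of the cells of the 3 CK mice at 0 weeks and in 1.1%, 1.2% and 0% of those of the CKp25 mice. At 1 week the shares were 3.6%, 3.2% and 1.1% in CK and 3.5%, 8.0% and 4.3% in CKp25 mice. At 2 weeks they were 2.1%, 2.1% and 1.1% against 19.1%, 13.5% and 25%. At 6 weeks they were 2.3%, 2.1% and 1.1% against 19.5%, 28.1%, 21.2% and 34.6%. The CKp25 mice thus stood several times higher than every control at 2 and 6 weeks and had no such separation at 1 week.

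On the log2(FPKM + 1) scale the level of Cox6a2 was 0.13, 0.14 and 0.02 in CK and 1.22, 0.86 and 1.53 in CKp25 mice at 2 weeks, a difference of 1.10 ± 0.17 (limma adjusted p = 1.22e-05). At 6 weeks it was 0.08, 0.12 and 0.08 against 1.43, 1.85, 1.19 and 2.30, a difference of 1.60 ± 0.16 (adjusted p = 1.68e-09). Cox6a2 passed the filter on low values only through the 7 CKp25 mice at 2 and 6 weeks, the groups where it is high, so some difference there was fixed by its being tested; no other mouse had it in more than 8.0% of cells. Both calls held without any single mouse and in every other setting tried, the one without a filter included, where the largest adjusted p was 0.00904. The difference between genotypes was 0.95 ± 0.25 higher at 2 than at 1 week in the interaction test (limma adjusted p = 0.0262), in which the same filter let the gene in through the group that is high. It was not called without a filter, with the log2 of the mean FPKM, with all wells, in cells with 2000 to 3000 genes or with limma without its trend and robust options. That interaction was lost without any 1 of 7 of the 12 mice: CK mice 1 and 2 and CKp25 mice 1 and 3 at 1 week, and CK mice 1 and 3 and CKp25 mouse 3 at 2 weeks.

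In RefSeq, Cox6a2 overlaps Itgad and lies beside Itgax, which encode integrin alpha chains of myeloid cells, and the library kit does not mark strand, so reads from overlapping genes cannot be told apart. Both neighbours were looked at after the values of Cox6a2 had been seen. Itgad was listed in at most 3.33% of the cells of any mouse. Itgax was listed in 3.12%, 4.17% and 10.9% of CK cells and in 46.8%, 44.8% and 51.5% of CKp25 cells at 2 weeks. At 6 weeks its shares were 13.6%, 10.6% and 9.89% against 41.5%, 40.4%, 40.4% and 61.7%. Its difference was 2.29 ± 0.22 at 2 weeks (limma adjusted p = 4.03e-10) and 1.94 ± 0.21 at 6 weeks (adjusted p = 5.44e-09). Within CKp25 mice at 2 weeks Itgax was listed in 66.7%, 53.8% and 64.7% of the cells with Cox6a2 and in 42.1%, 43.4% and 47.1% of those without. At 6 weeks the pairs were 62.5% and 36.4%, 56.2% and 34.1%, 63.6% and 34.1%, and 57.1% and 64.2%. Itgax was listed more often in the cells with Cox6a2 in all of these mice but CKp25 mouse 4 at 6 weeks. The cells with Cox6a2 also listed more genes in 6 of the 7 mice, with medians of 3669 against 2788 in mouse 3 at 2 weeks and 2801 against 1662 in mouse 3 at 6 weeks. The part of the number of genes in this, and the part of reads from Itgax or Itgad in the values of Cox6a2 was not tested.

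**Figure D3:**
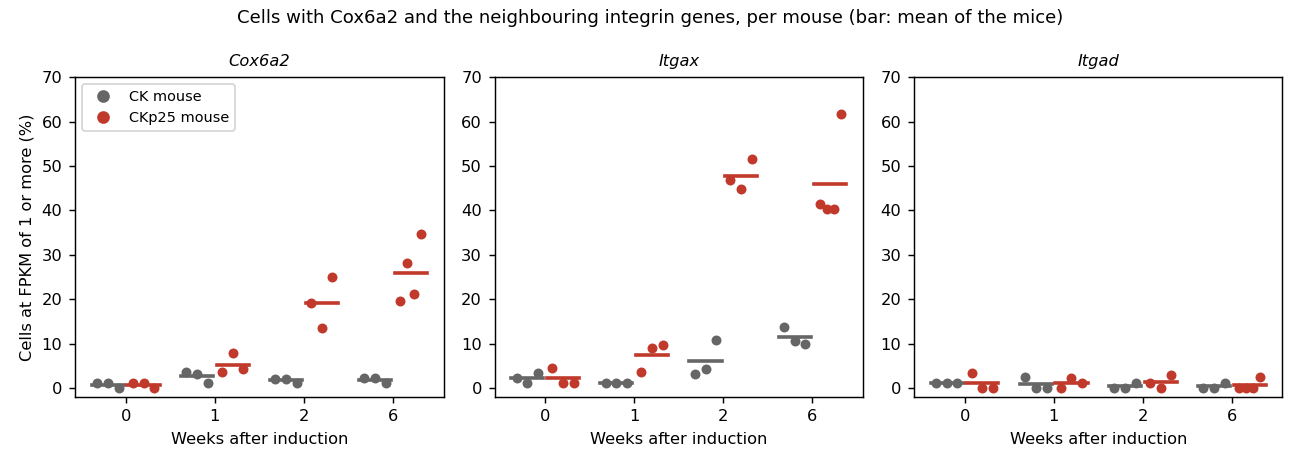
Share of kept cells of each mouse, in percent, in which Cox6a2 and the neighbouring genes Itgax and Itgad were listed at an FPKM of at least 1, in 1 panel per gene over weeks since induction, with 1 point per mouse and a line for the group mean. For Cox6a2 the CKp25 mice lie between 13.5% and 34.6% at 2 and 6 weeks and the CK mice at or below 2.3%, while Itgad stays at or below 3.33% in every mouse.

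The ATP synthase has a catalytic F1 head, a stalk, and a membrane part with a ring of c subunits. All 3 genes of the c ring, Atp5g1, Atp5g2 and Atp5g3, encode the same mature protein with different import sequences. Atp5g1 stood at 1.58, 2.21 and 1.36 in CK and 3.89, 3.1 and 2.53 in CKp25 mice at 1 week (difference 1.46 ± 0.41, limma adjusted p = 0.0281). At 2 weeks it stood at 0.99, 2.01 and 2.28 against 2.82, 3.18 and 3.09 (difference 1.27 ± 0.41, adjusted p = 0.0431). At 6 weeks it stood at 1.56, 1.78 and 2.2 against 1.20, 3.11, 1.00 and 2.2. The genotypes were apart at 1 and 2 weeks and overlapped fully at 6 weeks. Atp5g3 stood at 2.41, 2.70 and 2.2 against 4.21, 4.18 and 3.32 at 1 week (difference 1.46 ± 0.42, adjusted p = 0.033) and differed by 0.78 at 2 weeks and 0.50 at 6 weeks without a call. Both calls at 1 week were lost on omitting CK mouse 1 or 3 or CKp25 mouse 1 or 2. The call of Atp5g1 at 2 weeks was lost without CK mouse 1 or any 1 CKp25 mouse. Across 19 other settings each call at 1 week was lost in 8, and that of Atp5g1 at 2 weeks in 11.

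Atp5g2, the most abundant of the 3, was called at 6 weeks only. It stood at 4.21, 3.63 and 3.42 in CK and 5.13, 5.44 and 4.18 in CKp25 mice at 1 week. At 2 weeks it stood at 4.07, 4.98 and 2.97 against 4.83, 5.42 and 5.79. The groups overlapped at both times, and its differences of 1.16 and 1.34 were not called (limma adjusted p = 0.245 and 0.123). At 6 weeks it stood at 2.41, 4.30 and 4.05 against 6.55, 5.64, 4.45 and 5.38, with no overlap, and rose by 1.92 ± 0.50 (adjusted p = 0.0119). This call was lost on omitting CK mouse 1 or without CKp25 mouse 1, and in 3 of 19 other settings (limma adjusted p of up to 0.231). Of the summed FPKM of the 3 genes, Atp5g2 held 48.2% ± 4.08 in CK and 67.6% ± 6.10 in CKp25 mice at 6 weeks, against 52.5% and 50.4% at 0 weeks. Atp5g3 held 33.3% ± 6.85 in CK and 19.5% ± 4.23 in CKp25 mice at 6 weeks. These shares were not tested.

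In the F1 head, Atp5b, the catalytic beta subunit, stood at 3.66, 5.96 and 3.83 in CK and 6.68, 6.51 and 5.46 in CKp25 mice at 1 week. It was called there (difference 1.74 ± 0.51, limma adjusted p = 0.0375) although CKp25 mouse 3 was below CK mouse 2. Atp5e, the epsilon subunit, stood at 1.35, 2.44 and 0.83 against 2.57, 3.08 and 4.05 at 2 weeks (difference 1.69 ± 0.50, adjusted p = 0.0272). In the stalk and membrane part, Atp5j2 stood at 1.72, 1.95 and 1.23 against 2.91, 3.57 and 3.03 at 2 weeks (difference 1.53 ± 0.41, adjusted p = 0.0121). Atp5e and Atp5j2 had every CKp25 mouse above the controls. Atp5j, coupling factor 6 of the stalk, stood at 2.04, 3.46 and 2.18 against 3.62, 4.1 and 4.26 at 2 weeks (difference 1.44 ± 0.42, adjusted p = 0.0229). It shares bases with Gabpa, a gene for a subunit of GABP, whose own difference at that time was -0.20 and was not called (adjusted p = 0.637). Atp5l, subunit g of the membrane part, stood at 0.87, 2.09 and 1.59 against 3.23, 3.27, 2.16 and 3.36 at 6 weeks (difference 1.49 ± 0.44, adjusted p = 0.0283). CKp25 mouse 3 stood apart from the other 3 here, close to the highest control. The call of Atp5b was lost on omitting CK mouse 1 or 3 or CKp25 mouse 1 or 2, those of Atp5e and Atp5j on omitting CK mouse 1 or 3 or CKp25 mouse 2 or 3, and that of Atp5j2 without CK mouse 3 or CKp25 mouse 2. That of Atp5l was lost on omitting CK mouse 1 or 3 or CKp25 mouse 1, 2 or 4. Across 19 other settings Atp5b was lost in 6, Atp5e in 5, Atp5j in 8, Atp5j2 in 4 and Atp5l in 5. For Atp5l a block for the mouse number was among these settings.

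Across all tested members, CKp25 mice after induction had more cells in which a member was listed. On average a member was listed in 23.0% ± 2.58 of cells in CK and 23.2% ± 2.41 in CKp25 mice at 0 weeks. The shares were 29.3% ± 4.58 and 37.8% ± 8.31 at 1 week, 28.8% ± 5.45 and 41.9% ± 4.1 at 2 weeks, and 24.7% ± 5.41 and 31.3% ± 4.04 at 6 weeks. Over all tested genes the same average was 26.5% in CK and 29.1% in CKp25 mice at 2 weeks, so that the gap between genotypes was wider for the members. The median FPKM where a member was listed was 193 ± 53.5 in CK and 151 ± 42.1 in CKp25 mice at 1 week, 142 ± 18.9 and 108 ± 3.96 at 2 weeks, and 131 ± 23.6 and 131 ± 44.3 at 6 weeks. The mice overlapped in this measure at 1 and 6 weeks, and at 2 weeks every CKp25 mouse was below the controls. The mean FPKM over all kept cells is another measure, since it includes the cells at 0. For Cox4i1 it was 270 ± 63.9 in CK and 483 ± 71.7 in CKp25 mice at 2 weeks. Summed over the tested members it was 4817 ± 1022 in CK and 5838 ± 573 in CKp25 mice at that time. All tested members together held 1.13% of the summed FPKM in CK and 1.36% in CKp25 mice at 2 weeks, and 1.11% and 1.14% at 0 weeks. These averages over members describe the groups and were not tested.

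Cells in which more genes are listed also list more members, and the number of genes per cell differed between mice, so the shares were compared among cells of like gene number. Among cells with 2000 to 2500 genes, members were listed at 24.5% in CK and 28.8% in CKp25 mice at 1 week, 22.4% and 30.7% at 2 weeks, and 23.7% and 31.7% at 6 weeks, but 23.9% and 23.6% at 0 weeks. Among cells with 2500 to 3000 genes CK and CKp25 mice stood at 30.0% and 37.1% at 2 weeks, and at 29.0% and 37.4% at 6 weeks. Among cells with 3000 to 4000 genes the 2-week values were 38.6% and 52.5%, the 6-week values 41.7% and 51.5%. In these 3 ranges the lowest CKp25 mouse was above the highest CK mouse at 2 and at 6 weeks. Among cells with 1000 to 1500 genes the mice overlapped, with the lowest CKp25 mouse at 15.4% and the highest CK mouse at 19.9% at 2 weeks, and at 11.2% and 17.2% at 6 weeks. When only cells with 2000 to 3000 genes were used in the fit, 1, 5 and 11 members were called at 1, 2 and 6 weeks. Of all 9534 genes tested there 14, 248 and 442 were higher. This setting was chosen after the data were seen.

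**Figure D4:**
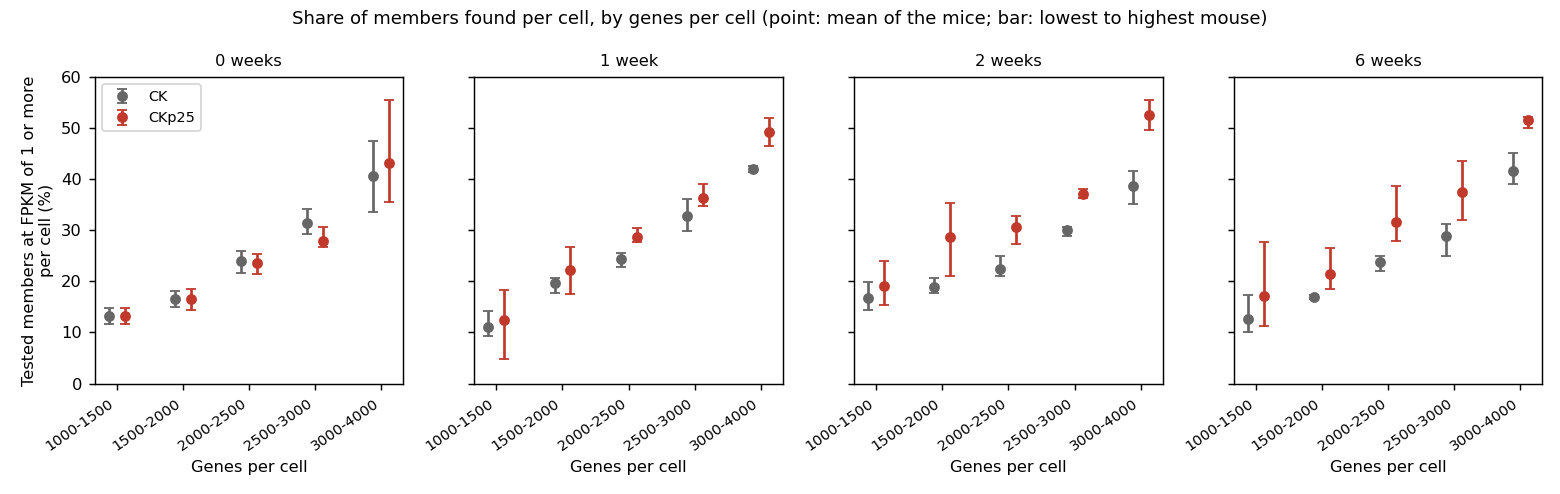
Average share of the 82 tested members listed per cell, in percent, against the number of genes listed in the cell, for cells with 1000 to 4000 genes, in 1 panel per time, with points for the mean of the mice and bars from the lowest to the highest mouse. Among cells with 3000 to 4000 genes the means are 38.6% in CK and 52.5% in CKp25 mice at 2 weeks, and at 0 weeks this range holds only 6 CK cells from 2 mice.

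At 1 week many CKp25 cells listed Mki67 or Top2a, genes of dividing cells. They were 24 of 86, 30 of 88 and 25 of 93 kept cells in the 3 CKp25 mice (27.9%, 34.1% and 26.9%), against 1.19%, 5.26% and 9.68% in the CK mice. Within each CKp25 mouse the members stood higher in these cells than in the others, at a mean level of 4.12 against 2.55, 3.70 against 2.56 and 3.36 against 1.63. They also listed more genes, with medians of 3149 against 2269, 3658 against 2633 and 2940 against 1881. All complexes showed the gap in every mouse, from 0.88 to 1.56 in complex II and from 1.41 to 2.28 in complex IV. The remaining cells of CKp25 mice, at 2.55, 2.56 and 1.63, overlapped with the remaining cells of CK mice, at 2.12, 2.38 and 1.93.

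Without the cells that listed Mki67 or Top2a no member was called at 1 week by limma (median difference 0.10). Few of all tested genes were called then: 8 of 9209 were higher (median -0.04), against 368 of 9435 with all kept cells. At 2 weeks 11 of the 16 calls of members remained, with no other gained (median 0.69), and 8 members were called at 6 weeks (median 0.39). Over all genes 490 and 386 of 9209 were higher at 2 and 6 weeks in this setting. At 2 weeks cells listing Mki67 or Top2a made up 10.6%, 15.6% and 11.8% of the kept cells of the CKp25 mice. With the median number of genes per cell as a covariate besides, a setting chosen after the data were seen, Cox6a1 alone was called at 1 week. Of all 9209 genes 38 were higher there. Cells listing Mki67 or Top2a and the number of genes per cell moved together, and the part of each in the calls at 1 week was not tested.

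**Figure D5:**
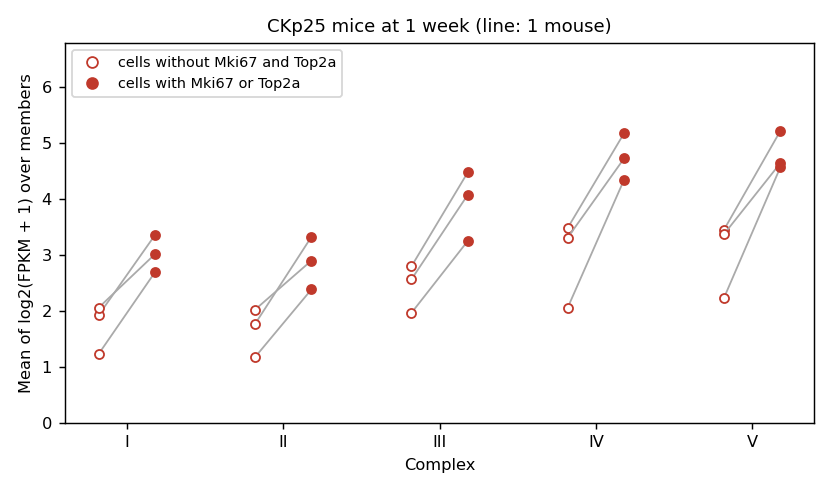
Mean level of the tested members of each complex, as log2(FPKM + 1), in the 3 CKp25 mice at 1 week, with open points for cells without Mki67 and Top2a, filled points for cells with either, and a line joining the values of a mouse. Every line rises to the filled point, in complex IV from 2.06 to 4.35 in mouse 3 and from 3.31 to 4.73 in mouse 2.

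In CK mice alone the members were compared with 0 weeks; these mice have the same ages as the CKp25 mice. No member was called by limma at 1, 2 or 6 weeks against 0 weeks (0% of all genes in each direction), with 19, 2 and 1 members at an unadjusted p under 0.05. The median differences were 0.52, 0.34 and 0.04, against 0.14, 0.15 and 0.00 over all tested genes. At 1 week 24 members had every CK mouse above every CK mouse at 0 weeks, where 18.6% of all genes did, and none the reverse (1.38%). At 2 weeks 15 members were above in this way and 2 below (13.6% and 1.23% of all genes), and at 6 weeks 7 above and 2 below (5.14% and 4.36%). The controls at 1 and 2 weeks thus had higher median levels than those at 0 weeks, without a call.

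Whether the genotype effect itself changed between times was tested with interaction terms. From 0 to 1 week no member was called (1.08% of all genes higher, 0.053% lower), with 10 at an unadjusted p under 0.05 and a smallest adjusted p of 0.112. From 1 to 2 weeks Cox6a2 alone was called, higher, with the limits given for it above (1.28% of all genes higher, 0.424% lower). From 2 to 6 weeks no member was called (0.0106% higher, 0.0318% lower), with 6 at an unadjusted p under 0.05 and a smallest adjusted p of 0.635. The median member effect moved by 0.48, 0.24 and -0.35 over these steps. A call at 1 time and none at another, as for Ndufb6, Cox7a2l or Atp5g2, is therefore not shown to be a change of the effect over time.

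Other genes of the same organelle were taken from lists of related pathways, and their counts are read against 3.9%, 6.14% and 4.21% of all genes higher at 1, 2 and 6 weeks. Of 13 tested electron carriers and subunits outside the prefixes, 0, 1 and 1 rose at 1, 2 and 6 weeks (4, 3 and 2 at an unadjusted p under 0.05), the call being 2010107E04Rik, which RefSeq names Atp5mpl, a small ATP synthase subunit (2.06 ± 0.45 at 2 weeks, limma adjusted p = 0.00136; 1.79 ± 0.42 at 6 weeks, adjusted p = 0.00361). Of 29 further assembly factors only Coa5, which serves complex IV, rose, at 2 weeks (1.35 ± 0.32, adjusted p = 0.00387). In the tricarboxylic acid cycle 1 of 20 genes rose at 1 week, Idh3a of isocitrate dehydrogenase (0.83 ± 0.21, adjusted p = 0.0142), and none at 2 or 6 weeks (3 and 2 at an unadjusted p under 0.05). In coenzyme Q synthesis 1 of 10 rose at 1 week, Coq7, and none at 2 or 6 weeks (3 and 0 unadjusted). Of 26 import proteins and chaperones 4, 3 and 2 rose: the matrix chaperone Hspa9 by 1.61 and the import pore Tomm40 by 1.35 at 1 week, and the co-chaperonin Hspe1 by 2.49 ± 0.42 at 2 weeks (adjusted p = 4.2e-05) and 2.08 at 6 weeks (adjusted p = 0.000296). Of 77 mitochondrial ribosomal proteins 4, 1 and 1 rose, a share near or below that of all genes. No gene of these lists fell.

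The 13 tested regulators of mitochondrial biogenesis and of mitochondrial DNA upkeep had no call at any time (1, 0 and 0 at an unadjusted p under 0.05), with median differences of -0.03, -0.04 and -0.09. Nrf1, which encodes the factor that binds the NRF1 motif, differed by -0.32 at 2 weeks (limma adjusted p = 0.458). The 7 tested carriers and uncoupling proteins had no call either (1, 2 and 1 unadjusted), with medians of 0.52, 0.66 and 0.50. Among the microglia markers P2ry12, a purinergic receptor of resting microglia, fell by 1.66, 3.20 and 2.81 at 1, 2 and 6 weeks on the same scale (limma adjusted p = 0.0366, 5.47e-06 and 2.01e-05). Of the 6 monocyte markers 2 were tested, and 1 was called at 2 weeks, Plac8, which rose by 0.92. Chil3 and F13a1, also monocyte markers, were listed in no kept cell of CKp25 mice at that time, and the other 4 were listed. Chil3 was also listed in no kept cell of CK mice at 0 and 6 weeks. The summed FPKM of the 6 markers at 2 weeks was 25.2 to 30.1 in CKp25 and 0.308 to 21.0 in CK mice. Every CKp25 mouse was thus above every CK mouse in this sum, which was not tested. The neutrophil marker Cxcr2 fell by 1.26 at 1 week. Of the endothelial markers Kdr rose by 0.34 and Pecam1 fell by 0.57 at 2 weeks. Without the 67 cells that listed at least 3 markers of another cell type, 8, 14 and 9 members were called at 1, 2 and 6 weeks.

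Members overlapped other genes in 30 of 94 cases in RefSeq, among them 8 of the 26 called members, and since strand was not kept their reads cannot be told apart from those of the partner gene. Over the 82 members the differences at 2 and 6 weeks went together (Pearson r = 0.594, Spearman rho = 0.616), those at 1 and 2 weeks less so (r = 0.397, rho = 0.439), and those at 1 and 6 weeks showed r = 0.0192 and rho = 0.131. These values are descriptions over genes measured in the same libraries, with separate CK and CKp25 mice at each time.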

How the data were processed

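The values are FPKM per gene and well, which the authors made with Cufflinks 2.2 on mm9, per the submitters' processing notes, and deposited as 1 table. The handling of reads that map to several places is not stated in these sources. Per the labels' protocols, RNA was primed with oligo-dT, amplified by PCR and made into libraries with a transposase kit, which keeps neither strand nor molecule counts.

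Wells with at least 1000 genes at an FPKM of 1 or more were kept as cells. A mouse was the replicate, and log2(FPKM + 1), with a pseudocount of 1, was averaged over its cells. Genes reaching an FPKM of 1 in 10% or more of cells in no fewer than 3 mice were tested. One limma fit (limma 3.58.1, R 4.3.3, with trend and robust options; 17 residual degrees of freedom) held all 25 mice in 8 groups, with Benjamini-Hochberg adjustment over 9435 genes and a threshold of 0.05. The fit was tested on simulated data. Shares of cells were compared with exact two-sided permutation tests over mice (scipy 1.17.1). No doublet caller was run. The labels do not say that same-numbered mice are pairs, and their deviations did not show it at every time. The numbers were thus not used as a block in the main fit. With such a block 9, 20 and 7 members were called at 1, 2 and 6 weeks, without Cox4i1 and Atp5l at 6 weeks.

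All members may be named; each mouse's value is given for up to 3 called members per complex and time with the largest differences, for the most abundant member of each complex, for members with a called interaction, and for the isoform sets. Of other genes at most 3 called per list and time, and markers, were named. The members and lists were chosen with earlier results of these data known. The alternatives were other pseudocounts, filters, scalings, sets of cells, covariates and limma options, and leaving out each mouse. RefSeq tables (GRCm38.p6) served for current names, overlaps and promoters, and no coordinates of mm9 were used.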

Additional observations from a re-analysis of the deposited data

Results flagged for a closer look

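In groups of 4 mice, 30 members were checked for a mouse far from the others by the gap to the nearest mouse divided by the range (Dixon's critical value), which chance passes in about 1 of 20 groups. CKp25 mouse 3 at 6 weeks stood low for Atp5l, at 2.16 on the log2(FPKM + 1) scale, with the other 3 mice between 3.23 and 3.36. The same mouse stood low for Uqcrq, at 1.39, with the others between 2.52 and 2.56. The genotype difference of Cox6a2 was 0.95 higher at 2 than at 1 week on the log2 scale in the interaction test of limma (adjusted p = 0.0262). The gene passed the filter on low values only through CKp25 mice at 2 and 6 weeks, and this call was lost without the filter and on leaving out any of 7 of the 12 mice. What lies behind these values was not tested.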

How the results depend on the processing

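The number of members called higher was 7 at 1 week, 16 at 2 weeks and 9 at 6 weeks. Of these calls only those of Cox6a2, at 2 and 6 weeks, were kept in every alternative. Cox6a2 passed the filter on low values only through CKp25 mice at these times, where it is high. Some difference there was thus fixed by its being tested. No alternative gave a member called lower, and none of the 808 values of called members under the alternatives reversed; 577 stayed on the same side of the threshold and 231 did not pass it. Without a filter on low values the counts were 2, 6 and 5, with all wells 2, 2 and 2, and with the log2 of the mean FPKM 0, 1 and 5. At 1 week the count was 0 without cells listing Mki67 or Top2a, 1 with only the groups of that week, and 4 with limma without its trend and robust options. Over all genes 8, 194 and 290 were higher in these settings, against 368 in the main fit. In cells with 2000 to 3000 genes the count of members was 1 at 1 week and 5 at 2 weeks, where 14 and 248 of 9534 genes were higher. Without cells listing Mki67 or Top2a and with the genes per cell as covariate it was 1 at 1 week, where 38 of 9209 genes were higher. Both settings were chosen after seeing the data. Leaving out each mouse in turn gave 1 to 11 calls at 1 week, 6 to 25 at 2 weeks and 5 to 13 at 6 weeks. The median difference at 2 weeks, 0.81, was 1.23 with a pseudocount of 0.1, 0.39 with one of 10, 0.23 with the log2 of the mean FPKM and 0.39 in cells with 2000 to 3000 genes.

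For the change of the genotype effect from 0 to 1 week, where 0 members were called, quantile normalization gave 1, cells with 2000 or more genes 2, the genes per cell as covariate 2, and leaving out a mouse 0 to 1. From 1 to 2 weeks, where 1 was called, it was 0 without a filter, with the log2 of the mean FPKM, with all wells, in cells with 2000 to 3000 genes and with plain limma, and 0 to 1 on leaving out a mouse. From 2 to 6 weeks it was 1 in place of 0 in cells with 2000 to 3000 genes. With the mouse number as a replicate block 9, 20 and 7 members were called at 1, 2 and 6 weeks, with Cox4i1 and Atp5l not called at 6 weeks. Same-numbered mice had deviations correlated at 0.116 to 0.220 at 0 weeks, where each correlated best with its own number, but not all pairs passed 0.1 at the other times (-0.119 to 0.348), so the numbers hint at a pairing that the labels do not state. The depth of single values is unknown, and genes listed at 0 in most cells limit what small differences can show.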
